A study of Homo sapiens with 36 samples.

Results

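The mature miRNAs of HEK293T lysates were compared between cells transfected with wild-type AGO2 (WT-AGO2) and cells that received the empty vector. The 6 libraries described here, 3 of each group, were chosen by their labels as the input fraction of WT-AGO2 and of the empty vector, out of 36 libraries in the series. HEK293T cells are an established line from human embryonic kidney. The WT-AGO2 group received a vector coding for Flag/HA-tagged AGO2, and the control group received the Flag/HA vector without an insert. The authors describe co-transfection of the AGO2 vectors with pEGFP-C1, a plasmid for a green fluorescent protein, and lysis on the next day. They do not state the co-transfection separately for the empty vector. The lysate, taken before any immunoprecipitation, holds the miRNAs of all transfected and untransfected cells, and these cells keep their own AGO2. The level of the transfected AGO2 itself was not read in these small RNA libraries and is not analysed here. The labels do not say whether the 3 replicates are separate cultures, so that p-values measure only the spread between these libraries, which may be technical.

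AGO2 is the Argonaute protein that holds a miRNA and guides it to target mRNAs by base pairing with the seed, the stretch near the 5′ end of the miRNA. A miRNA hairpin gives a duplex, from which one strand, the guide, stays in Argonaute, while the passenger strand is usually discarded and decays. Mature miRNAs are protected by the Argonaute proteins they sit in. The comparison therefore asks whether added AGO2 was accompanied by a different share of miRNAs among all reads of the lysate, or by a different composition. HEK293T cells are known for abundant miRNAs of the Mir-10 family, some of whose genes lie in the HOX clusters. The cells are also known for miRNAs of the polycistrons driven by MYC, which hold members of the Mir-17, Mir-19 and Mir-92 families.

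The data listed 135 mature miRNAs under MirGeneDB names, in which P and a number or letter mark paralogues, 5p and 3p the arm of the hairpin, and an asterisk the passenger strand. They formed 56 families, with 110 rows without an asterisk and 25 annotated passenger strands. Of these 135 miRNAs, 129 were found in at least 1 of the 6 lysates, 62 in all 6 and 6 in none. Sequences were taken from RefSeq (GRCh38.p14), in which 25 of the 135 names could be matched by number and arm. For the larger families only the family number could be matched, so that the sequences below show what a family looks like and do not resolve the paralogue of a row.

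Sequences of the families that filled most of the lysate are shown first, each 5′ to 3′, with the seed (bases 2 to 8) in capitals.
hsa-miR-10a-5p: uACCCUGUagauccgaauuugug
hsa-miR-92a-3p: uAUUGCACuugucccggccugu
hsa-miR-92b-3p: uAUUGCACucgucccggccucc
hsa-miR-148a-3p: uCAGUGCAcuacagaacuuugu
hsa-miR-148b-3p: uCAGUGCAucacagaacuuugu
hsa-miR-22-3p: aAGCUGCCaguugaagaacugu
hsa-miR-191-5p: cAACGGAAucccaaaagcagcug
hsa-miR-378a-3p: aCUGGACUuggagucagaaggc
hsa-miR-27a-3p: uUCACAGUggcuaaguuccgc
hsa-miR-27b-3p: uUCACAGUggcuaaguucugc
hsa-miR-15a-5p: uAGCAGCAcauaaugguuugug
hsa-miR-16-5p: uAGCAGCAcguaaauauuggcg

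Within a family these sequences shared the seed and differed further along. The 2 Mir-92 sequences differed at 3 of 22 bases, the first of them at position 10, the 2 Mir-148 sequences at 2 of 22 bases, and the 2 Mir-27 sequences at 1 of 21 bases, at position 19, all counted from the 5′ end. Identical mature sequences from several hairpins cannot be told apart by sequencing, as for miR-92a-3p (chr13:91351361-91351382, plus strand, in an exon of MIR17HG, and chrX:134169544-134169565, minus strand) and for miR-16-5p (chr13:50049027-50049048, minus strand, in an intron of DLEU2, and chr3:160404754-160404775, plus strand, in an intron of SMC4). The mature miR-10a-5p lies at chr17:48579904-48579926 (minus strand), within a HOXB3 intron and a HOXB4 exon in the GENCODE annotation of GRCh38, from which the other gene contexts were also taken. The mature miR-191-5p lies in a DALRD3 intron (chr3:49020672-49020694, minus strand), miR-22-3p in an exon of MIR22HG (chr17:1713914-1713935, minus strand) and miR-378a-3p in a PPARGC1B intron (chr5:149732867-149732888, plus strand).

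The libraries held between 653195 reads (empty vector replicate 1) and 2317168 reads (empty vector replicate 3), as inferred from the RPM (the reads scaled to the total of the library) that 1 read is worth. Mature miRNAs took between 1925 reads (empty vector replicate 1) and 9391 reads (WT-AGO2 replicate 1) of these. WT-AGO2 replicate 1 stood apart from the other 5 libraries in its share of mature miRNA reads, and empty vector replicate 1 was the shallowest library. A level of 3 reads, used here as the detection limit, corresponded to 1.29 to 4.59 RPM. Pearson correlations of log2(RPM + 1) were 0.912 to 0.929 within the WT-AGO2 lysates, 0.904 to 0.945 within the empty vector lysates and 0.870 to 0.953 between the groups, over miRNAs, which are not independent replicates. The 4 families listed as typical of HEK293T (Mir-10, Mir-17, Mir-92 and Mir-15) made up 59.1 to 66.3% of mature miRNA reads. None of the miRNAs listed for liver, blood, muscle, epithelium or fibroblasts was in the data, 1 of 1 endothelial family (Mir-126) took 0.104 to 0.383%, 2 of 6 neuronal families (Mir-128 and Mir-218) took 0.312 to 1.41% and the islet miRNA Mir-375 took at most 0.0903%. The part of other cells in the results was not tested.

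The share of mature miRNA in the reads of a lysate did not separate the groups. This share also depends on the other RNAs of a library and does not measure the amount of miRNA. In such bulk lysates, fewer cells with a miRNA and less of it per cell cannot be told apart. Mature miRNA reads were 0.571% (95% Wilson interval 0.559 to 0.582%), 0.237% (0.230 to 0.244%) and 0.231% (0.223 to 0.240%) of all reads in WT-AGO2 replicates 1 to 3. In the empty vector lysates they were 0.295% (0.282 to 0.308%), 0.310% (0.302 to 0.318%) and 0.271% (0.265 to 0.278%). WT-AGO2 replicate 1 thus lay above all the controls and WT-AGO2 replicates 2 and 3 lay below all of them, and the intervals, which cover counting error only, were far narrower than the spread between the WT-AGO2 replicates. The means were 0.346% ± 0.195 for WT-AGO2 and 0.292% ± 0.0194 for the empty vector (SD, n = 3), which did not differ in a two-sided exact permutation test (p = 1). Without WT-AGO2 replicate 1 the difference turned from 0.0543 to -0.0580 percentage points, with both remaining WT-AGO2 libraries below all the controls (exact permutation p = 0.2, the smallest that 2 libraries against 3 allow). With 3 libraries against 3, an exact permutation test cannot go below p = 0.1.

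The number of different miRNAs overlapped between the groups. At 1 RPM or more, 120, 96 and 85 mature miRNAs were found in the WT-AGO2 lysates and 71, 108 and 98 in the controls, which gave means of 100.3 ± 17.9 and 92.3 ± 19.1 (SD, n = 3; two-sided exact permutation test, p = 0.7). The highest number came from the library with most mature reads and the lowest from that with the fewest. At the depth of the shallowest library, the expected numbers of miRNAs with at least 1 read were 93.9 for WT-AGO2 and 89.2 for the empty vector on average (exact permutation p = 0.8). The libraries were led by few miRNAs, since the 4 or 5 most abundant held 50% of mature reads and 26 to 37 miRNAs held 90%. The 10 most abundant miRNAs of the 6 lysates together took 67.0, 69.4 and 68.6% with WT-AGO2 and 74.0, 69.0 and 66.9% with the empty vector (68.3% ± 1.24 against 70.0% ± 3.65, SD, n = 3; exact permutation p = 0.7).

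**Figure D1:**
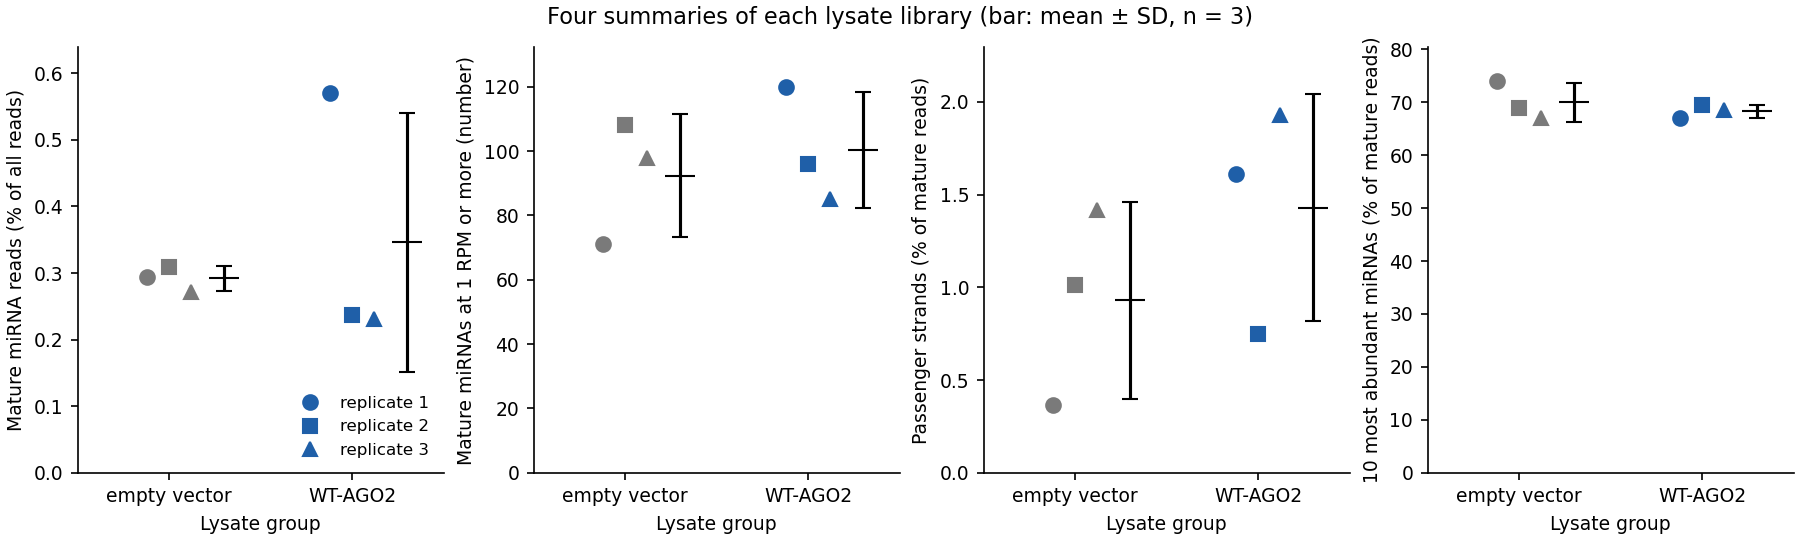
Share of mature miRNA reads in all reads (%), number of mature miRNAs at 1 RPM or more, share of annotated passenger strands in mature miRNA reads (%) and share of the 10 most abundant miRNAs (%) in the empty vector (grey) and WT-AGO2 (blue) lysates. Each symbol is a library, with the shape giving the replicate number, and the bars are mean ± SD of 3 libraries. The groups overlap in every panel, and WT-AGO2 replicate 1 has the highest share of mature reads, at 0.571%.

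The composition of the lysate was led by the same few miRNAs in both groups. Hsa-Mir-10-P1c-v1_5p was the most abundant miRNA, with 23.1, 22.9 and 21.3% of mature reads in the WT-AGO2 lysates and 25.8, 20.8 and 22.4% in the controls. Its paralogue Hsa-Mir-10-P1b-v1_5p came next, with 11.7, 12.8 and 9.61% against 18.4, 11.0 and 9.83%, so that empty vector replicate 1 stood above the other 5 libraries. The Mir-10 family as a whole took 34.5% ± 2.24 with WT-AGO2 and 37.0% ± 7.21 with the empty vector (SD, n = 3). The log2 fold change of the family, WT-AGO2 minus empty vector, was -0.19 (95% interval -0.70 to 0.33; limma, Benjamini-Hochberg adjusted p = 0.941).

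The Mir-92 family, whose miR-92a is made from the MIR17HG polycistron, was the next in abundance. It took 21.5% ± 1.33 of mature reads with WT-AGO2 and 21.1% ± 4.08 with the empty vector (SD, n = 3), a log2 fold change of -0.06 (-0.47 to 0.35; limma, adjusted p = 0.941). Hsa-Mir-92-P1a_3p held 6.99, 9.03 and 9.69% in the WT-AGO2 lysates and 5.66, 9.90 and 9.04% in the controls. Hsa-Mir-92-P1c_3p held 6.61, 8.49 and 9.14% against 5.51, 9.58 and 8.59%, nearly the same as Hsa-Mir-92-P1a_3p in each library, and paralogues that share reads are uncertain. Hsa-Mir-92-P1d_3p held 4.55, 2.97 and 2.40% against 4.68, 4.08 and 3.05%, and Hsa-Mir-92-P2d_3p held 1.76, 1.70 and 0.983% against 0.883, 1.25 and 1.10%. All 4 overlapped between the groups.

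Hsa-Mir-186_5p was the fifth miRNA of the lysate and the only one of the 15 most abundant whose groups lay apart, with 4.53, 4.81 and 4.92% in the WT-AGO2 lysates and 3.43, 3.74 and 4.49% in the controls. The difference was small (log2 fold change 0.22, 95% interval -0.16 to 0.60) and did not pass the test (limma, adjusted p = 0.990). Hsa-Mir-22-P1b_3p took 2.81, 2.59 and 3.46% against 2.23, 2.33 and 2.99%. Hsa-Mir-148-P1_3p, of a family known to target the DNA methyltransferase DNMT1, took 2.74% ± 0.198 with WT-AGO2 and 2.74% ± 0.766 with the empty vector (SD, n = 3). The last of these differed between the groups by less than the spread between replicates.

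Hsa-Mir-191_5p, from the DALRD3 intron, varied more than its neighbours in the ranking, with 1.70, 1.63 and 3.13% in the WT-AGO2 lysates and 3.48, 2.06 and 2.50% in the controls. Its log2 fold change was -0.41 (-1.10 to 0.27; limma, adjusted p = 0.990), the lowest among miRNAs that averaged 30 RPM or more in their higher group. The highest among them was that of Hsa-Mir-221-P2a_3p, at 0.43 (-0.17 to 1.04; limma, adjusted p = 0.990). It took 1.03, 0.772 and 0.983% of mature reads with WT-AGO2 and 0.416, 0.650 and 0.970% with the empty vector. Hsa-Mir-378_3p took 1.98% ± 0.501 and 2.05% ± 0.592, and Hsa-Mir-27-P2_3p, of a family known from lipid metabolism, 2.19% ± 0.399 and 1.80% ± 0.0829 (SD, n = 3). Hsa-Mir-15-P2a_5p and Hsa-Mir-15-P2b_5p had identical values in every library (1.40% ± 0.164 and 1.27% ± 0.168) and cannot be told apart. The Mir-15 family, with miR-15 and miR-16, is known to restrain the cell cycle. Hsa-Mir-221-P1a_3p, of the family that targets the cell cycle inhibitor CDKN1B, closed the list with 0.639, 1.20 and 1.46% against 0.883, 1.52 and 1.29%.

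**Figure D2:**
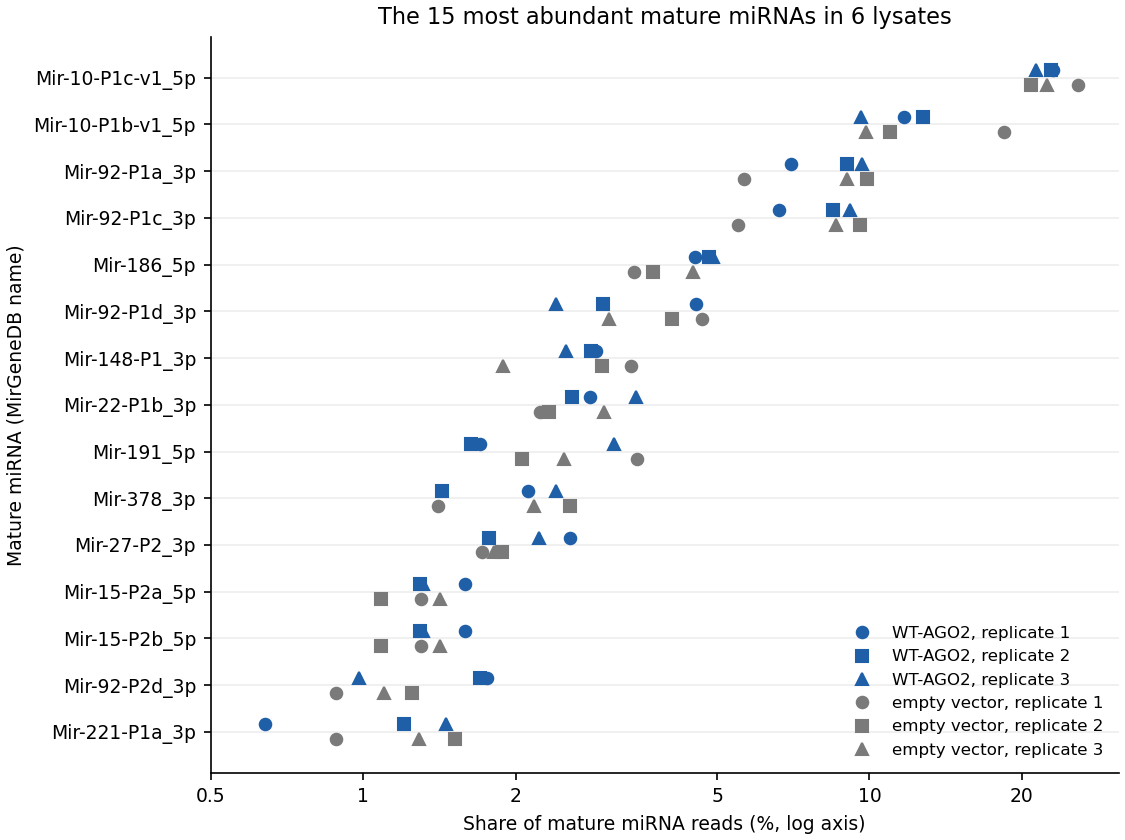
Share of mature miRNA reads (%, log axis) of the 15 most abundant mature miRNAs in each of 3 WT-AGO2 (blue) and 3 empty vector (grey) lysates, with the symbol giving the replicate number. Mir-10-P1c-v1_5p lies between 20.8 and 25.8% in all 6 libraries, and of the 15 miRNAs only Mir-186_5p has all WT-AGO2 values above all the controls.

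The 15 most abundant lysate miRNAs were also abundant on the transfected protein, since 15 of the 15 were among the 20 most abundant in the anti-HA immunoprecipitate of WT-AGO2. Hsa-Mir-10-P1c-v1_5p was first in both fractions. Hsa-Mir-148-P1_3p was seventh in the lysate and 16th in the immunoprecipitate, while Hsa-Mir-221-P1a_3p was 15th in the lysate and eighth in the immunoprecipitate. The input and the immunoprecipitate of WT-AGO2 come from the same transfections, so that these ranks are a description.

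**Figure D3:**
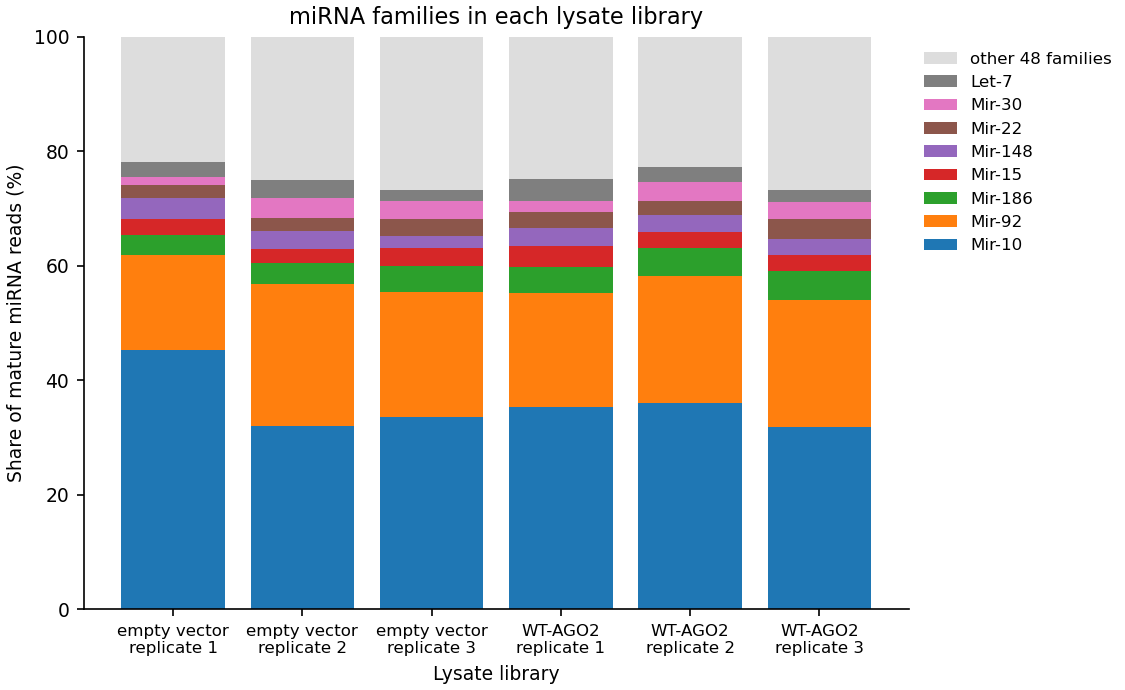
Share of mature miRNA reads (%) taken by the 8 most abundant miRNA families and by the other 48 families together, stacked for each of the 6 lysate libraries. Mir-10 and Mir-92 together fill more than any other pair of families in every library, and the Mir-10 part is largest in empty vector replicate 1.

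No miRNA was called different between the lysates. Of 105 miRNAs with a scaled level of at least 1 RPM in 2 of 3 libraries of a group, 0 were called (0%). The test was limma on the scaled log2(RPM + 1), and a call needed an adjusted p below 0.05 together with a log2 fold change above 1 or below -1. At an unadjusted p below 0.05 there were 3 miRNAs, and the smallest adjusted p was 0.820. Of the 105 log2 fold changes, 56 were positive and 49 negative, with a median of 0.02. The scaling removed the high miRNA share of WT-AGO2 replicate 1, and with the RPM as deposited the median was higher by 0.16. Of the 51 families tested 0 were called (0%), none at an unadjusted p below 0.05 (limma, smallest adjusted p = 0.941).

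How large a difference these lysates could have hidden depended on the level of the miRNA. For 30 of the 105 miRNAs the 95% interval of the log2 fold change lay within -1 and 1, which leaves a 2-fold difference outside it. These were 15 of the 19 miRNAs that averaged 30 RPM or more, 12 of the 21 between 10 and 30 RPM and 3 of the 65 below 10 RPM. Rows with identical values, such as Hsa-Mir-26-P1_5p and Hsa-Mir-26-P4_5p, were counted separately in these numbers. The median half-width of the interval was 0.55, 0.75 and 1.41 in these classes. No miRNA with a mean of at least 10 RPM had an absolute log2 fold change above 1, while 8 miRNAs below 10 RPM did. For the other low miRNAs the interval reached a 2-fold difference. The number of intervals within -1 and 1 was 46 with the replicate number as a block, 17 without empty vector replicate 2 and 0 with RPM as deposited. The blocked fit took its variances from a trend over all miRNAs and not from the single miRNA.

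**Figure D4:**
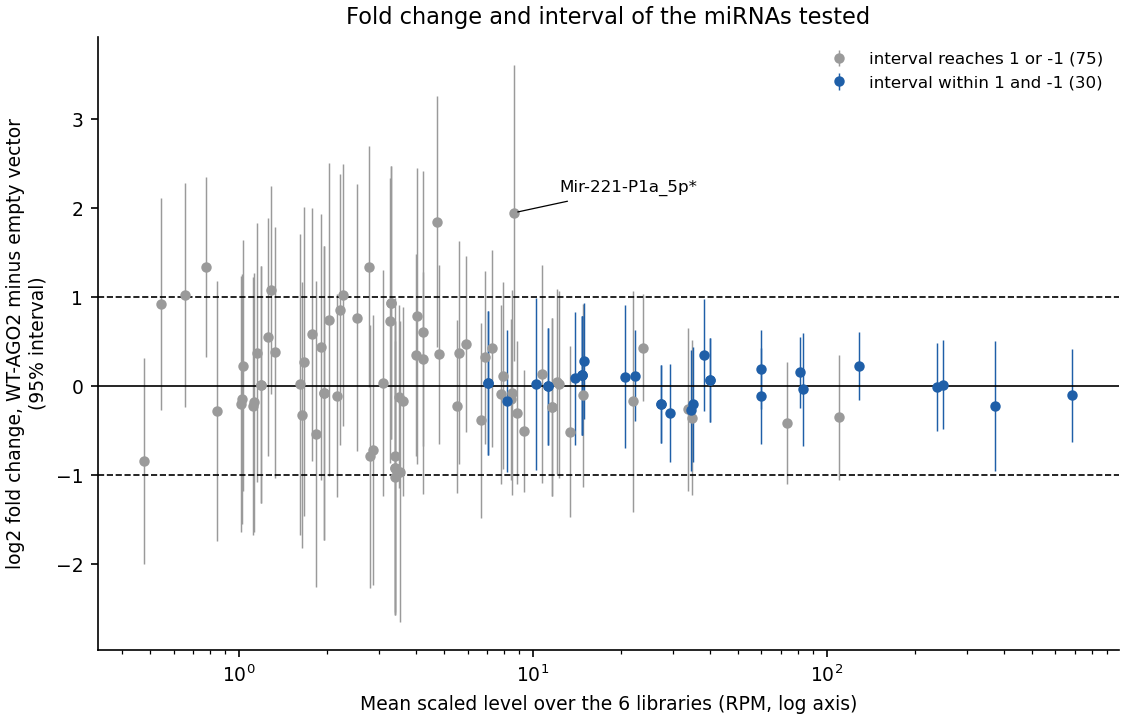
log2 fold change (WT-AGO2 minus empty vector, with its 95% interval from limma) of the 105 miRNAs tested against the mean scaled level over the 6 libraries (RPM, log axis). Dashed lines mark log2 fold changes of 1 and -1, and blue points are the 30 miRNAs whose interval lies between them. The intervals narrow from left to right, and all the fold changes beyond the dashed lines lie below 10 RPM.

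In 10 of the 105 miRNAs the scaled levels of the groups did not overlap. With 3 libraries against 3, a miRNA without any difference lies apart in this way with a probability of 0.1. The number found is thus near that of miRNAs without a difference. All 3 WT-AGO2 libraries were above all the controls for 7 miRNAs (6.67% of those tested) and below them for 3 (2.86%). The 7 were Hsa-Mir-186_5p, Hsa-Mir-374-P2_5p, Hsa-Mir-130-P4a_3p, Hsa-Mir-221-P1a_5p*, Hsa-Let-7-P1b_5p, Hsa-Mir-27-P3_3p and Hsa-Mir-96-P3-v1_5p, the last of which is named because of this pattern. The 3 below the controls, named for the same reason, were Hsa-Mir-345_5p and the identical rows Hsa-Mir-26-P1_5p and Hsa-Mir-26-P4_5p. Hsa-Mir-345_5p took 0.288, 0.204 and 0.291% of mature reads with WT-AGO2 and 0.312, 0.397 and 0.382% with the empty vector (log2 fold change -0.50, 95% interval -1.19 to 0.18; limma, adjusted p = 0.990). Hsa-Mir-26-P1_5p, of a family known to target the histone methyltransferase EZH2, took 0.864% ± 0.0453 against 0.951% ± 0.0874 (SD, n = 3). Its shares of mature reads, unlike its scaled levels, overlapped between the groups.

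The 6 miRNAs with the smallest p-values were all higher with WT-AGO2, all low in abundance and all at 0 in empty vector replicate 1, the shallowest library. Sequences that share their number and arm, or where not resolved only their family, are shown with the seed in capitals. A sequence matched by family only need not be that of the row.
hsa-miR-374b-5p: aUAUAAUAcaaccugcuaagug
hsa-miR-130b-3p: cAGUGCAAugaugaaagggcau
hsa-miR-222-5p: cUCAGUAGccaguguagauccu
hsa-let-7a-5p: uGAGGUAGuagguuguauaguu
hsa-miR-671-3p: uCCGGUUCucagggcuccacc
The first 4 of these lines were matched by family only, and hsa-miR-671-3p was matched by number and arm. Hsa-Mir-27-P3_3p belongs to the family of the Mir-27 sequences above.

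Hsa-Mir-221-P1a_5p* is the passenger strand of a hairpin whose 3p arm is among the 15 most abundant miRNAs. It had 33, 15 and 19 reads in the WT-AGO2 lysates and 0, 8 and 17 in the controls, or 0.351, 0.340 and 0.692% of mature reads against 0, 0.145 and 0.270%. The 3 reads of the detection limit would be 0.156% in empty vector replicate 1. Its log2 fold change of 1.95 (95% interval 0.28 to 3.61) did not pass the test (limma, unadjusted p = 0.0266, adjusted p = 0.930). The guide of the same hairpin, Hsa-Mir-221-P1a_3p, had a log2 fold change of -0.27 (-0.95 to 0.41). In the RefSeq annotation miR-222-5p (chrX:45747073-45747094) and miR-222-3p (chrX:45747036-45747056) are the arms of one hairpin and miR-221-3p (chrX:45746180-45746202) belongs to another, all within a MIR222HG intron on the minus strand. Which of them Mir-221-P1a is was not resolved.

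Hsa-Mir-221-P1a_5p* was the only miRNA whose call depended on the pairing of replicates. The log2 differences within replicates 1, 2 and 3 were 3.52, 1.10 and 1.22, each higher with WT-AGO2. With the replicate number as a block it was called (limma, adjusted p = 0.00337, 95% interval 1.04 to 2.85), 1 of 105 miRNAs in that fit. The blocked fit took the variance from a trend over all miRNAs (2 residual, 210 total degrees of freedom). The unequal differences within replicates therefore did not widen this interval. With both libraries of a replicate number left out of the blocked fit Hsa-Mir-221-P1a_5p* was no longer called. Its log2 fold change was then 1.15 without replicate 1 (adjusted p = 0.118), 2.41 without replicate 2 (adjusted p = 0.553) and 2.33 without replicate 3 (adjusted p = 0.0968). The difference within replicate 1 rests on a control library with 0 reads and therefore depends on the pseudocount.

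Hsa-Mir-130-P4a_3p had 17, 11 and 10 reads with WT-AGO2 and 0, 4 and 7 with the empty vector (log2 fold change 1.85, 95% interval 0.44 to 3.25; limma, adjusted p = 0.820, and 0.127 with the block). Hsa-Mir-374-P2_5p had 4, 2 and 2 reads against 0 in all 3 controls. Over the libraries of a group this is 1.70 RPM, or 2.70 times the 0.631 RPM of 3 reads over the controls. That ratio takes the observed reads as exact and is not a lower bound. The fitted log2 fold change of 1.34 (95% interval 0.33 to 2.35) depends on the pseudocount (limma, adjusted p = 0.820). The RefSeq miR-374b hairpin lies in an intron of FTX, a long noncoding RNA gene. Hsa-Let-7-P1b_5p, of the family that holds back RAS, HMGA2 and LIN28, had 14, 6 and 4 reads against 0, 5 and 3 (log2 fold change 1.34, -0.01 to 2.69; limma, adjusted p = 0.990). Hsa-Mir-27-P3_3p had 6, 2 and 3 reads against 0, 1 and 2, and Hsa-Mir-671_3p had 8, 2 and 0 reads against 0 in all controls.

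**Figure D5:**
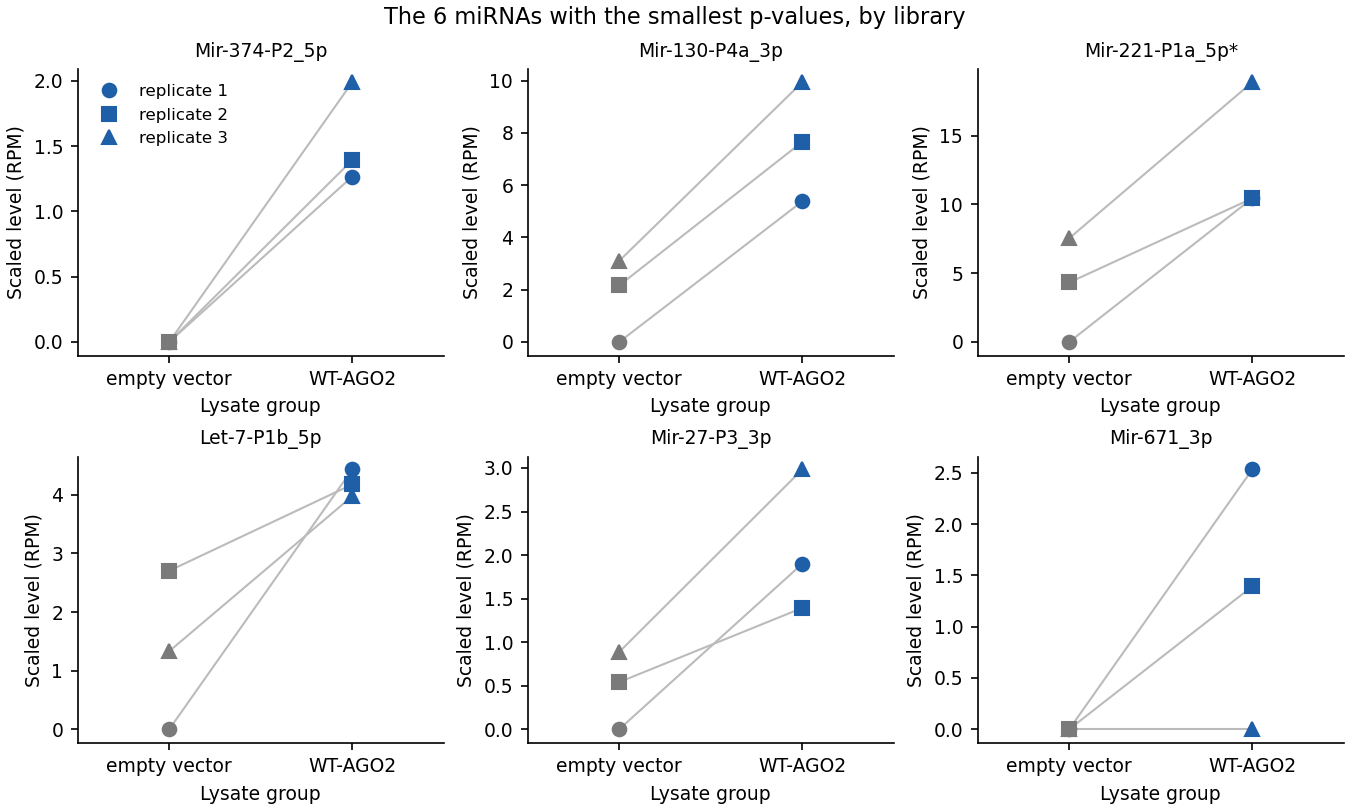
Scaled level (RPM) of the 6 miRNAs with the smallest unadjusted p in the empty vector (grey) and WT-AGO2 (blue) lysates, with lines that join the libraries of the same replicate number. Empty vector replicate 1 (circle) lies at 0 in all 6 panels, and none of the 6 miRNAs passed the test without the replicate block.

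Apart from Hsa-Mir-374-P2_5p and Hsa-Mir-671_3p, 3 further miRNAs were found in at least 2 libraries of one group and in none of the other. Hsa-Mir-28-P1_5p had 6 reads over the WT-AGO2 lysates, 2.03 times the level of 3 reads over the controls. Hsa-Mir-10-P3b_5p had 4 reads over the empty vector lysates. Hsa-Mir-450-P3_5p had 6 there, 1.97 times the level of 3 reads over the WT-AGO2 lysates. Both ratios take the observed reads as exact and are not lower bounds. The 3 miRNAs had read numbers at which single libraries often had none. Of the 810 values of the 6 libraries, 203 were 0, 22 were 1 read, 63 were 2 reads and 45 were 3 reads.

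By family and function, no list of miRNAs held a called member. The families linked to polycistrons driven by MYC (Mir-17, Mir-19 and Mir-92) were counted whole, and their sum is not a polycistron share. Which rows belong to a polycistron was not resolved, and the RefSeq miR-92b lies apart on chr1. These families had 13 tested miRNAs (12 with distinct values). Of the log2 fold changes 9 were positive and 4 negative, with a median of 0.02, the same as over all miRNAs. The families together took 23.7% ± 1.60 of mature reads with WT-AGO2 and 23.4% ± 4.67 with the empty vector (SD, n = 3). The 9 tested let-7 miRNAs were 5 positive and 4 negative (median 0.12), but with rows of identical values counted once 6 remained, 3 positive and 3 negative (median 0.0057). The let-7 family took 2.84% ± 0.937 against 2.55% ± 0.484. The 7 tested miRNAs of the Mir-15 and Mir-103 families had a median of 0.07, with 6 positive and 1 negative (4 and 1 of 5 with distinct values), the negative one being Hsa-Mir-15-P1b_5p at -1.02 (-2.54 to 0.51).

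The 3 tested Mir-10 miRNAs were all negative (median -0.17), as were the 5 of Mir-26 and Mir-101 (median -0.09), which are 3 distinct sets of values, and the 3 of Mir-181 (median -0.92), which are 2. Mir-30 had 3 positive and 5 negative members (median -0.08, 7 with distinct values). The Mir-130 and Mir-148 families, which share part of their seed, had 3 positive and 2 negative (median 0.38). Of the growth-linked families Mir-21 and Mir-221, 2 were positive and 3 negative (median -0.27), with Hsa-Mir-21_5p at -0.96 (-2.65 to 0.73). Of the 3 listed Mir-320 miRNAs, a family that matures without Drosha, 1 could be tested, with a log2 fold change of 0.77. Mir-484, on the same list, was not among the families in the data.

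Passenger strands were scarce in both lysates. They took 1.61, 0.749 and 1.93% of mature reads with WT-AGO2 and 0.364, 1.01 and 1.42% with the empty vector, so that the groups overlapped (1.43% ± 0.611 against 0.930% ± 0.531, SD, n = 3; two-sided exact permutation test, p = 0.4). Between 3 (empty vector replicate 1) and 14 (WT-AGO2 replicate 1) of the 25 annotated passenger strands were found in a library. Hsa-Mir-221-P1a_5p* was the most abundant of them. Without it the shares were 0.968% and 0.792% on average (exact permutation p = 0.5). Hsa-Mir-126-P2-v1_5p* followed with 36, 6 and 10 reads against 2, 9 and 22, and Hsa-Mir-148-P1_5p* with 30, 3 and 9 against 3, 6 and 10. Of the 25 passenger strands 9 could be tested, 6 positive and 3 negative (median 0.37).

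The balance of the strands of a hairpin was tested where each strand was read in at least 2 of 3 libraries of a group. Of 12 hairpins, 0 had a called difference in the log2 ratio of passenger to guide (0%), none at an unadjusted p below 0.05 (limma, smallest adjusted p = 0.583), and 9 of the 12 differences were positive. Of the positive ones, Mir-1307, Mir-181-P1a, Mir-221-P1a, Mir-28-P1, Mir-30-P1a, Mir-30-P1d and Mir-423 had no passenger reads in empty vector replicate 1. Mir-17-P1d and Mir-130-P4a, with negative differences, also had none there. A passenger strand without reads beside a guide with reads gave a strongly negative ratio. The size of these differences, and for some hairpins their direction, therefore depends on that shallow library. For Mir-130-P4a the guide had no reads there either, so that its ratio in that library was 0. For Mir-221-P1a the mean log2 ratio was -1.25 with WT-AGO2 and -6.25 with the empty vector, with a 95% interval of the difference of -2.83 to 12.82, since 1 control library had no passenger reads. For Mir-28-P2, whose arms were both read in every library, the ratio was -0.14 against 0.02 (difference -0.16, -3.45 to 3.13). The moderated intervals borrow their width from all 12 hairpins, including those with libraries at 0. Without WT-AGO2 replicate 2, Mir-28-P1 alone was called (limma, adjusted p = 0.00926), a hairpin whose 5p arm had 4, 0 and 2 reads with WT-AGO2 and 0 in the controls.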

How the data were processed

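Small RNA of HEK293T lysates was sequenced in 3 WT-AGO2 and 3 empty vector libraries (TruSeq Small RNA kit). The authors ran sRNAbench with MirGeneDB as annotation, and the values they deposited are RPM relative to all reads of a library. The labels name GRCh38. How reads that match several miRNAs were divided, and what minimum expression was applied, is not given in the sources used here. All values above 0 were whole multiples (tolerance 0.001) of the RPM of 1 read, which gave the reads used for depth, Wilson intervals and detection limits of 3 reads. These describe counting error only, and no count model was fitted.

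RPM were scaled by the median of ratios over miRNAs above 0 in all 6 libraries and tested as log2(RPM + 1) with limma 3.58.1 in R 4.3.3 (lmFit, eBayes with trend), with Benjamini-Hochberg adjustment over all miRNAs tested. Folds understate the change of low miRNAs. Families were summed before the same test. Strand ratios (CPM of mature reads plus 1 CPM) were tested with limma without trend. Single values per library were compared by exact permutation tests in scipy 1.17.1. The fits were run on simulated data with known changes, where high recovery was required only at a depth far above that of these libraries. Recovery at the depth of these libraries is not given here.

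Named are the 15 most abundant miRNAs, all called miRNAs, the 6 with the smallest p, the 3 highest and the 3 lowest fold changes at 30 RPM or more, and Mir-451 and Mir-486, which were not listed. Members, lists and markers were chosen with earlier results of these data known. Same-numbered libraries of the groups deviated together (correlations of deviations from the group means of 0.336, 0.181 and 0.302, against -0.262 to 0.0362 for other numbers), so that the replicate numbers of the labels were taken as pairs in an alternative fit. Deviations from a group mean cancel out, so that high values for the same numbers go with low values for the others. The pairing itself was not tested. Of the 135 rows, 33 formed 15 sets with identical values in these 6 libraries. Other libraries and isomiRs were not used here, except the ranks in the WT-AGO2 immunoprecipitate and a fit of all 6 lysate groups.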

Additional observations from a re-analysis of the deposited data

How the results depend on the processing

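With 18 of the 19 alternatives, 0 miRNAs were called, and between 0 and 6 had an unadjusted p below 0.05. Without the block the smallest adjusted p ranged from 0.116 to 0.991 (limma). The exception was the replicate block, with 1 miRNA called. The block changed no other call. A count model (DESeq2 or edgeR) was planned but not run, since the few low values of the listed miRNAs could not show that the deposited RPM come from unadjusted counts. Counting rows with identical values once, and leaving out a replicate number from the blocked fit, were chosen after seeing the data. The number of intervals within -1 and 1 was 104 with a pseudocount of 10 RPM, which shrinks fold changes, 46 with the block and 0 with RPM as deposited, and 17 to 30 with a library left out. Without empty vector replicate 2 it was 17.

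With a library left out, 0 to 1 strand ratios were called. The difference in the share of mature reads was then -0.0580 to 0.112 percentage points, that in the number of miRNAs -2.67 to 15.8 and that in the share of the 10 most abundant miRNAs -3.20 to 0.354 percentage points. The first turned without WT-AGO2 replicate 1, the other two without empty vector replicate 1, or for the number of miRNAs also without WT-AGO2 replicate 1. Of 363 recomputed log2 fold changes of the 23 named miRNAs, 25 turned direction, in 10 miRNAs, none of them called, and the cause was not tested. With RPM as deposited they turned to 0.079 (Hsa-Mir-10-P1c-v1_5p), 0.17 (Hsa-Mir-92-P1c_3p), 0.15 (Hsa-Mir-148-P1_3p) and 0.077 (Hsa-Mir-378_3p), with CPM to 0.060 (Hsa-Mir-92-P1c_3p) and 0.035 (Hsa-Mir-148-P1_3p), and with identical rows counted once to -0.0055 (Hsa-Mir-92-P1a_3p). With a library left out, the log2 fold changes ranged from -0.21 to 0.041 for Hsa-Mir-10-P1c-v1_5p, -0.49 to 0.11 for Hsa-Mir-10-P1b-v1_5p, -0.17 to 0.19 for Hsa-Mir-92-P1a_3p, -0.19 to 0.16 for Hsa-Mir-92-P1c_3p, -0.37 to 0.19 for Hsa-Mir-148-P1_3p, -0.29 to 0.093 for Hsa-Mir-378_3p, -0.027 to 0.17 for Hsa-Mir-15-P2a_5p and Hsa-Mir-15-P2b_5p, -0.45 to 0.062 for Hsa-Mir-221-P1a_3p and -0.59 to 0.064 for Hsa-Mir-28-P2_3p.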
